A study of Mus musculus with 12 samples.

Results

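The nuclei described here were labelled fibrotic fibroblasts and were picked from mouse lung single-nucleus RNA-Seq by the messages they carried. A nucleus was taken when it had at least 1 unique molecular identifier (UMI, 1 captured RNA molecule) of *Col1a1*, *Col1a2*, *Col3a1* or *Pdgfra*, and at least 3 UMIs spread over at least 2 of *Cthrc1*, *Postn*, *Tnc*, *Adam12* and *Thbs1*. It also needed more UMIs from those 5 scored genes than from 10 genes of other mesenchymal states (*Itga8*, *Scube2*, *Adra1a*, *Pi16*, *Scara5*, *Rtkn2*, *Kit*, *Ednrb*, *Wt1* and *Myh11*). Of 49163 barcodes in 12 libraries, 47319 passed the quality limits (200 to 6000 genes and at most 5% mitochondrial UMIs), and 403 were chosen. They were read beside 9529 other fibroblast nuclei of the same libraries, each with at least 3 UMIs over at least 2 of 14 fibroblast markers and more UMIs from those markers than from the markers of any other cell class.

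The lungs came from C57BL/6J mice aged 7 weeks, 3 per group and 1 library per mouse, and were collected at 14 days. Mice received bleomycin, which injures the lung and leads to scarring, or PBS into the trachea. From day 5 they were given NVP-BHG712, a small-molecule inhibitor of the receptor tyrosine kinase EphB4, or its vehicle (N-methyl-2-pyrrolidone with PEG 300) by gavage daily for 5 days, to ask whether EphB4 inhibition limits fibrosis. The 4 groups are called PBS-vehicle, PBS-NVP, bleomycin-vehicle and bleomycin-NVP. PBS libraries carried run numbers 1 to 3, all bleomycin-NVP libraries run number 4, and bleomycin-vehicle libraries batch numbers 6 and 7, so run or batch and treatment cannot be told apart in any comparison with a bleomycin group.

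Fibroblasts build the collagen and elastin scaffold of the lung. After injury some of them take on a fibrotic state, in which they secrete matrix proteins, contract and respond to TGF-β. Tenascin-C (*Tnc*) and periostin (*Postn*) are matricellular proteins of healing and scarring tissue, thrombospondin-1 (*Thbs1*) can release active TGF-β from its latent complex, *Adam12* encodes a metalloprotease of activated mesenchyme, and *Cthrc1*, a secreted collagen-related protein, is widely used as the defining marker of matrix-producing fibroblasts in scarred lung. EphB4 binds the membrane ligand ephrin-B2.

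Median depth was 925 to 5408 UMIs per barcode, 1924 to 6705 in the chosen nuclei and 1113 to 5802.5 in the other fibroblast nuclei. Mitochondrial UMIs made up a median of 1.27%, 0.581% and 0.508% of the chosen nuclei of bleomycin-vehicle libraries 1, 2 and 3, and at most 0.0657% in every other library. Of 48838 distinct barcodes, 324 occurred in more than 1 library, among them 6 barcodes of chosen nuclei, of which 1 was chosen in both libraries. The 22 chosen nuclei that a doublet caller marked were kept, and 308 of the 403 carried more UMIs of the fibroblast markers than of any other class. Among the remainder, AT2 markers led in 19, pericyte markers in 18, endothelial markers in 16 and AT1 markers in 10.

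The label was checked first, and *Cthrc1* did not bear it out. *Cthrc1* (chr15:39076932-39087121, GRCm38) was found in 11 of the 403 nuclei (2.73%), with 16 UMIs in all. Of these UMIs 5 were in 1 nucleus of a PBS-vehicle mouse and 11 in bleomycin-vehicle mice. When nuclei were chosen by the other 4 genes alone, *Cthrc1* appeared in 6 of 398 (1.51%) against 0.210% of the other fibroblasts, and across all classes it was most frequent in AT2 nuclei, at 3.54% with a level of 14.4 counts per 1000000 UMIs (CPM), at a median depth of 2165 UMIs against 3458.5 in fibroblast nuclei.

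*Postn* (chr3:54361109-54391037) was also uncommon, in 15.6% of the chosen nuclei with 227 UMIs. Chosen by the other 4 genes, 22 of 362 nuclei (6.08%) had a *Postn* UMI against 1.29% of the other fibroblasts, and all 22 came from bleomycin-vehicle mice. *Postn* was far more common in nuclei led by pericyte markers, at 63.7% and 772 CPM with a median depth of 2042 UMIs. The nuclei are therefore described below by the genes that carried the choice, *Tnc*, *Thbs1* and *Adam12*.

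*Tnc* (chr4:63959785-64047015) was present in 84.1% of the chosen nuclei with 4568 UMIs, *Thbs1* (chr2:118111876-118127133) in 78.9% with 1680 UMIs, and *Adam12* (chr7:133883199-134232146) in 55.8% with 879 UMIs. These shares were set by the choice and are a description. Each gene was also read without its own vote, over all libraries together. *Tnc* was in 60.2% of nuclei chosen by the other genes against 22.5%, *Thbs1* in 56.4% against 14.5%, and *Adam12* in 37.3% against 4.82%. Bleomycin-vehicle supplied most of these nuclei, 128 of the 161 for *Tnc*. In PBS-vehicle *Tnc* was in 2 of 10 nuclei (20%, against 22.8% of the other fibroblasts) and in bleomycin-NVP in 1 of 4 (25%, against 25.6%). Its excess in share was thus not seen in those groups. By level it stood at 510 CPM against 106 CPM in PBS-vehicle and at 1653 CPM against 187 CPM in bleomycin-NVP, from these few nuclei. *Adam12* was not restricted to fibroblasts, since 70.3% of lymphatic endothelial nuclei carried it at a median depth of 2139.5 UMIs, and *Thbs1* was in 36.1% of smooth muscle nuclei at 2744 UMIs.

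The scored genes came mostly in pairs. *Tnc* with *Thbs1* alone described 149 nuclei (37.0%), *Tnc* with both *Thbs1* and *Adam12* 110 nuclei (27.3%), and *Tnc* with *Adam12* 51 nuclei. Of the 403 nuclei 266 carried 2 of the 5 genes, 126 carried 3, 9 carried 4 and 2 carried all 5. With nuclei pooled over libraries, *Adam12* differed most by share, at 62.9% in bleomycin-vehicle, 27.3% in PBS-vehicle, 44.2% in PBS-NVP and 26.3% in bleomycin-NVP. By library it was in 80 of 113, 57 of 83 and 51 of 103 bleomycin-vehicle nuclei. The PBS-vehicle counts were 4 of 16, 3 of 10 and 2 of 7. In PBS-NVP they were 19 of 35, 3 of 11 and 1 of 6, and in bleomycin-NVP 0 of 7, 3 of 4 and 2 of 8. The bleomycin-vehicle libraries thus overlapped those of both NVP groups. Pooled in the same way, *Tnc* and *Adam12* were found together in 50.5% of bleomycin-vehicle nuclei, 12.1% of PBS-vehicle nuclei, 34.6% of PBS-NVP nuclei and 10.5% of bleomycin-NVP nuclei. The last group held only 19 nuclei.

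**Figure D1:**
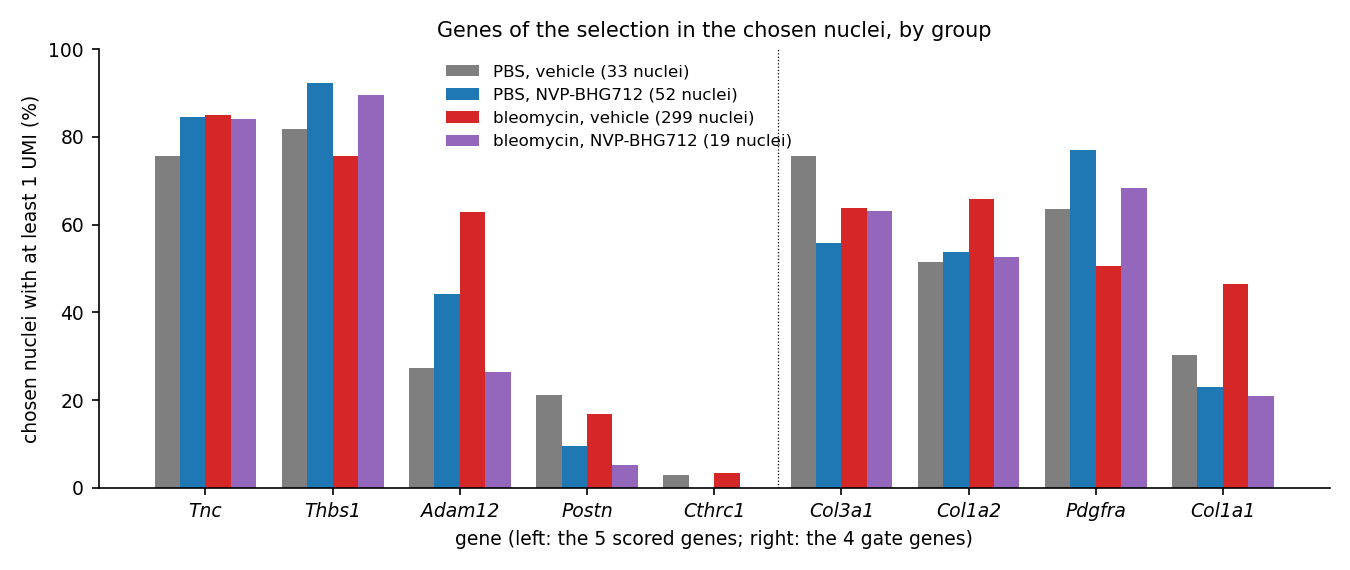
Share of chosen nuclei (%) with at least 1 UMI of each of the 5 scored genes (left of the dotted line) and the 4 genes required for entry (right), 1 bar per group over all nuclei of its 3 libraries. *Tnc* and *Thbs1* stood above 75% in every group, *Adam12* reached 62.9% in bleomycin-vehicle nuclei, and *Cthrc1* stayed at or below 3.34%.

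Summed over the chosen nuclei, *Tnc* stood at 1010, 840 and 1806 CPM in PBS-vehicle, at 2082, 3810 and 2336 in PBS-NVP, at 5268, 1439 and 1404 in bleomycin-vehicle, and at 4644, 1428 and 2638 in bleomycin-NVP. The PBS-vehicle values lay below those of PBS-NVP, and the values of both bleomycin groups overlapped those of both PBS groups. Of 1650 genes with enough UMIs over all 12 libraries, 9.82% did not overlap between the PBS groups. *Adam12* was above 400 CPM in all 3 bleomycin-vehicle libraries, but 1 library each of PBS-NVP (497 CPM) and bleomycin-NVP (1932 CPM, from 4 nuclei) lay in or above that range. A few nuclei held much of the *Tnc* signal. In bleomycin-vehicle library 1, a single nucleus supplied 831 of 2177 *Tnc* UMIs (38.2%), and in bleomycin-NVP library 1 a single nucleus supplied 77.2%. Single nuclei also supplied 53.2% and 79.6% in PBS-NVP libraries 2 and 3, and 68.9% in PBS-vehicle library 3. Over all fibroblast nuclei, chosen or not, *Tnc* stood at 84.5, 130 and 163 CPM in PBS-vehicle, at 102, 245 and 190 in PBS-NVP, at 2418, 241 and 187 in bleomycin-vehicle, and at 293, 132 and 208 in bleomycin-NVP. Bleomycin-vehicle library 1 thus stood alone, and libraries 2 and 3 of that group lay within the range of the others. The chosen nuclei held 89.4%, 67.6% and 39.3% of the *Tnc* UMIs of bleomycin-vehicle fibroblasts, and 5.78% to 40.6% in the other 9 libraries.

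At the boundary, 49 nuclei entered with exactly 3 UMIs of the scored genes, of which 41 were bleomycin-vehicle nuclei, 7 PBS-NVP nuclei and 1 a bleomycin-NVP nucleus. Just outside were 59 nuclei with 2 UMIs over 2 scored genes (53 of them bleomycin-vehicle), 310 with at least 3 UMIs from only 1 scored gene and 424 in which the 10 opposing genes had as many UMIs or more.

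The first comparison asked how common these nuclei were among fibroblasts. PBS-vehicle libraries held 16, 10 and 7, which was 1.83%, 2.14% and 1.71% of their fibroblast nuclei. PBS-NVP libraries held 35, 11 and 6, or 1.80%, 2.29% and 1.31%. Bleomycin-vehicle libraries held 113, 83 and 103, or 24.4%, 5.70% and 4.70%. In bleomycin-NVP there were 7, 4 and 8, or 2.30%, 0.857% and 1.90%. All 3 bleomycin-vehicle libraries lay above the other 9, while the other 3 groups overlapped. Counting error alone was small for the bleomycin-vehicle libraries (exact 95% intervals 20.6% to 28.6%, 4.56% to 7.01% and 3.85% to 5.67%) and wide for bleomycin-NVP library 2 (0.234% to 2.18%).

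The mean share was 11.6% ± 11.1 (SD, n = 3) in bleomycin-vehicle and 1.89% ± 0.223 (SD, n = 3) in PBS-vehicle, a difference of 9.71 percentage points (two-sided exact permutation test, p = 0.1, adjusted p = 0.195). In bleomycin-NVP it was 1.69% ± 0.747 (SD, n = 3), a difference of -9.91 points from bleomycin-vehicle (exact permutation test, p = 0.1, adjusted p = 0.195). With 3 mice against 3 the smallest p this test can give is 0.1, so neither comparison could pass the threshold. PBS-NVP, at 1.80% ± 0.488 (SD, n = 3), differed from PBS-vehicle by -0.0948 points (exact permutation test, p = 0.9, adjusted p = 1). Bleomycin-NVP differed from PBS-NVP by -0.112 points (exact permutation test, p = 1, adjusted p = 1), and the 6 bleomycin libraries did not differ from the 6 PBS libraries beyond their spread (exact permutation test, p = 0.117, adjusted p = 0.195). Bleomycin-vehicle library 1 set most of the size, because without it the group mean was 5.20% ± 0.704 (SD, n = 2) and the difference from PBS-vehicle 3.30 points.

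**Figure D2:**
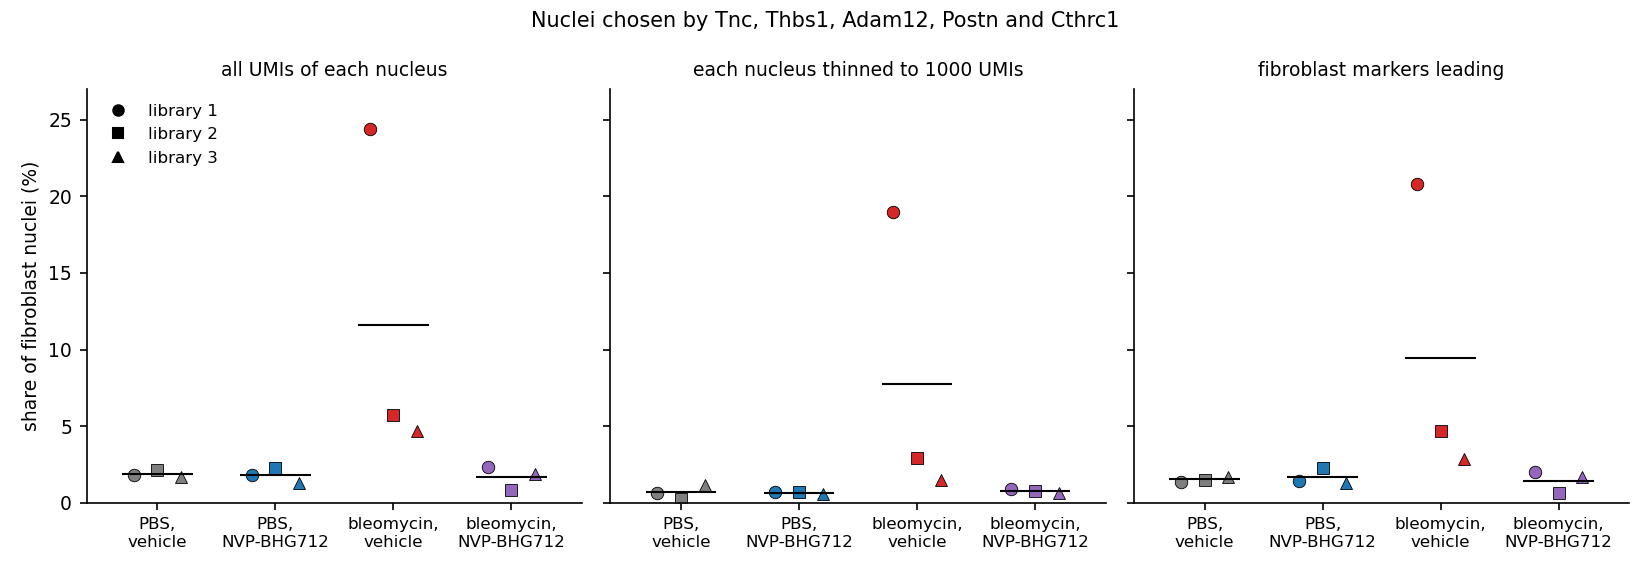
Chosen nuclei as a share of fibroblast nuclei (%) in each of 12 libraries, with the group mean as a line, counted from all UMIs (left), after thinning every nucleus to 1000 UMIs (middle) and for nuclei led by fibroblast markers (right). Bleomycin-vehicle library 1 stands at 24.4%, 18.97% and 20.8%, and the other 2 libraries of that group lie nearer to the rest.

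Depth changed the shares, but bleomycin-vehicle stayed highest. With every nucleus thinned to 1000 UMIs, which left out 1173, 1100, 4246 and 1117 shallower nuclei in PBS-vehicle, PBS-NVP, bleomycin-vehicle and bleomycin-NVP, the bleomycin-vehicle libraries held 48 of 253, 28 of 968 and 28 of 1907 fibroblast nuclei, the last 2 being 2.89% and 1.47%. The PBS-vehicle shares were then 0.630%, 0.264% and 1.17%, those in PBS-NVP 0.676%, 0.688% and 0.562%, and those in bleomycin-NVP 0.917%, 0.744% and 0.619%. The lowest bleomycin-vehicle library (1.47%) was then close to the highest PBS-vehicle library (1.17%).

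Free RNA can place fibroblast messages in other nuclei, so the same limits on the scored genes were applied to AT1, AT2, airway, blood endothelial, macrophage and lymphocyte nuclei. In bleomycin-vehicle libraries 1, 2 and 3, 1.51%, 0.509% and 0.370% of these nuclei passed, at median depths of 1287, 1467.5 and 3142 UMIs against 1160, 1569.5 and 4221.5 in fibroblast nuclei. In the PBS libraries 0.0609% to 0.108% passed, and in bleomycin-NVP 0.0711% to 0.271%. A *Tnc* UMI was found in 6.66%, 4.42% and 3.71% of such nuclei in bleomycin-vehicle and in 0.670% to 1.99% elsewhere, against 16.0% to 39.7% of fibroblast nuclei. The passing share was thus higher in both fibroblast and other nuclei of bleomycin-vehicle mice, and the part of free RNA in the fibroblast share was not tested. Over all libraries, nuclei led by lymphatic endothelial markers (17.0%), smooth muscle markers (5.15%, 5 of 97) and pericyte markers (3.02%) also passed these limits, against 3.37% of fibroblast nuclei.

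Set beside the other fibroblast nuclei of the same library, the chosen nuclei were described in the 7 libraries that had at least 10 of them (2 PBS-vehicle, 2 PBS-NVP and 3 bleomycin-vehicle). Because the choice fixed this contrast, no test was made. Of 6037 genes at 20 CPM or more, 370 were higher in the chosen nuclei in all 7 libraries, 453 were lower in all 7, and the median log2 ratio was 0.04. Genes at 50 CPM or more were also ranked by median ratio, whether or not they were higher in every library. Among the 15 highest were matrix and adhesion genes. These were *Itga5*, the fibronectin-binding integrin subunit (median log2 ratio 2.55, higher in 7 of 7), and *Ltbp2*, which binds elastic microfibrils (2.26, 7 of 7). The fibril-associated collagen *Col12a1* (2.26, 7 of 7) and *Aspn*, a small leucine-rich proteoglycan (2.32, 5 of 7), were further ones.

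The remaining higher genes were of mixed kinds. They included the sialyltransferase *St6galnac3* (2.81, 7 of 7), *Tc2n* (2.28, 7 of 7), the cation channel *Trpc6* (2.66, 6 of 7), *Myocd*, a transcriptional coactivator of smooth muscle genes (2.53, 6 of 7), *Fam189a1* (2.55), *Nmnat2* (2.50), *Rgs6* (2.30), *Clstn2* (2.26), *Kctd16* (2.22) and the potassium channel *Kcnq5* (2.67, 5 of 7). *Kcnq5* shows how uneven these sums were. Its members' level was 5007 CPM in PBS-vehicle library 1 and 2171 CPM in bleomycin-vehicle library 3, but 67.8 CPM in bleomycin-vehicle library 1 and 0 in PBS-NVP library 2. Markers of other mesenchymal cells moved with these genes. The summed pericyte list ran from 64.3 to 1915 CPM in the chosen nuclei of the 7 libraries and from 96.3 to 279 CPM in the other fibroblasts, with a median log2 ratio over its 5 genes of 1.56, and smooth muscle genes had a median of 2.07. Their part in the higher genes was not tested.

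Other genes were lower in the chosen nuclei. *C7*, a complement component, stood at 317 to 804 CPM in the chosen nuclei of the 7 libraries and at 2230 to 3803 CPM in the other fibroblasts (median log2 ratio -2.75), with no overlap. The matrix genes *Efemp1* (-2.38) and *Itgbl1* (-2.14), the growth factors *Nrg2* (-2.10) and *Vegfd* (-1.98), the transporter *Abca8a* (-2.08), *Plcxd3* (-2.03), *Fam13a* (-2.02), the methyltransferase *Inmt* (-1.94) and *Mettl7a1* (-1.92) were lower in 7 of 7 libraries.

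**Figure D3:**
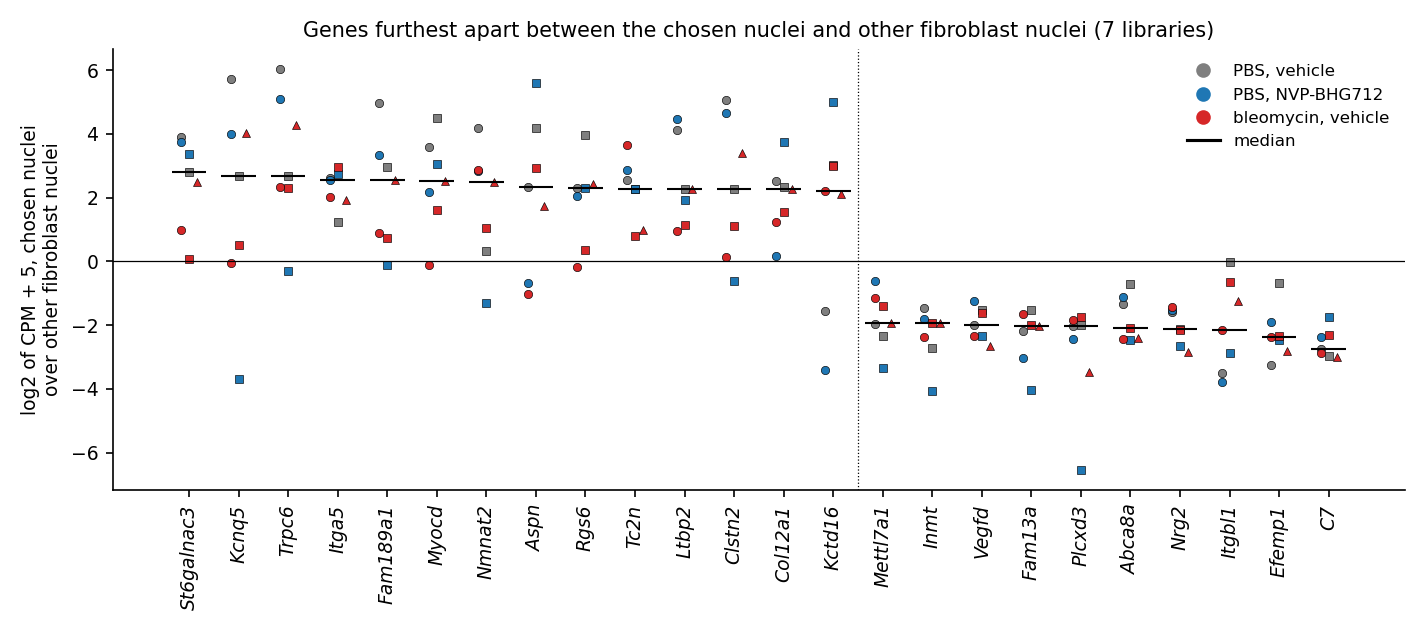
Log2 ratio of CPM (5 added to each) in chosen over other fibroblast nuclei for 14 of the 15 genes with the highest median and the 10 with the lowest, 1 point per library (circles, squares and triangles are libraries 1, 2 and 3 of a group) and a line at the median of 7. The lower genes lie below 0 in every library, while most higher genes, such as *Kcnq5*, spread widely and cross 0.

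The gene lists followed the same description. Fibrotic markers other than the scored genes had a median log2 ratio of 1.00 over 16 genes at 20 CPM, but only 2 of the 16 were higher in all 7 libraries, and *Lrrc15* had no UMI in any chosen nucleus. Collagen genes had a median of 0.82 (6 of 15 higher in all 7), TGF-β target genes 0.83 (3 of 14), contractile genes 0.91 (3 of 9) and genes of the TGF-β pathway 0.40 (5 of 17). Alveolar fibroblast genes had a median of -1.12 (8 of 12 lower in all 7) and adventitial fibroblast genes -0.75 (2 of 5 lower in all 7). Peribronchial fibroblast genes stood at 1.34, with 0 of 8 higher in all 7 libraries. Markers of other classes stood as high, with AT2 markers at 0.88 (3 of 8 higher in all 7), AT1 markers at 0.78 (1 of 7), endothelial markers at 0.96 (0 of 7) and lymphatic markers at 1.22 (0 of 2), and their part in the other lists was not tested. Against these, 6.13% of all genes were higher in all 7 libraries.

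The receptor that NVP-BHG712 targets gave few UMIs in these nuclei, which were themselves few. *Ephb4* (chr5:137350109-137378669) gave 3, 1 and 2 UMIs in the chosen nuclei of the 3 PBS-vehicle libraries, 2, 1 and 0 in PBS-NVP, 8, 11 and 10 in bleomycin-vehicle, and 1, 1 and 0 in bleomycin-NVP. In the other fibroblasts it stood at 10.8 to 23.6 CPM in all 12 libraries, with overlapping groups. The bleomycin-vehicle sums of chosen nuclei held 413247, 383670 and 576185 UMIs in all, so by level *Ephb4* there was not below that range. Its ligand gene *Efnb2* gave 4, 7 and 0 UMIs in the chosen PBS-vehicle nuclei, 16, 0 and 0 in PBS-NVP, 26, 13 and 22 in bleomycin-vehicle, and 2, 1 and 0 in bleomycin-NVP. It was the only one of 8 EphB and ephrin-B genes with enough UMIs to be tested (bleomycin-vehicle over PBS-vehicle, log2 fold change -0.64 ± 0.944 SE, adjusted p = 0.853 by edgeR), and *Ephb6* and *Efnb3* had none in any chosen nucleus.

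Gene levels within the chosen nuclei were next compared between bleomycin-vehicle and PBS-vehicle, the question being what bleomycin changed inside them. UMIs of all chosen nuclei were summed per library and tested with edgeR's quasi-likelihood test over the 7 libraries with at least 10 chosen nuclei. Of 3656 genes with enough UMIs, 14 were called at an adjusted p under 0.05 (0.383%), 12 higher (0.328%) and 2 lower (0.0547%), and 419 had an unadjusted p under 0.05. The rises comprised 7 mitochondrial genes, the fibronectin gene *Fn1*, the signalling phosphatase gene *Ubash3b* and 3 others, while *Prkcq* and *Scn3a* fell. In 32.9% of all tested genes the groups did not overlap.

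*Fn1* (chr1:71585520-71653200), which encodes a fibril-forming matrix glycoprotein, was the only fibrotic marker beyond the scored genes to be called. Its level in the chosen nuclei was 211, 143 and 415 CPM in PBS-vehicle, 1418, 962 and 800 CPM in bleomycin-vehicle, 732, 1013 and 1601 CPM in PBS-NVP, and 717, 588 and 1465 CPM in bleomycin-NVP. The 3 PBS-vehicle libraries were therefore below the other 9, among which the groups overlapped. The rise from PBS-vehicle to bleomycin-vehicle was 2.67 ± 0.447 on the log2 scale (SE, adjusted p = 0.0460 by edgeR), a call lost in 8 of 17 alternatives, with adjusted p reaching 0.292 by edgeR. In the other fibroblasts *Fn1* was 450, 701 and 554 CPM in PBS-vehicle and 1402, 585 and 624 CPM in bleomycin-vehicle, a log2 fold change of 0.55 (adjusted p = 0.636 by edgeR). The difference between the 2 changes was 2.05 (adjusted p = 0.0550 by edgeR) and was not called. PBS-NVP over PBS-vehicle gave a log2 fold change of 2.25 ± 0.470 SE for *Fn1* in the chosen nuclei (adjusted p = 0.666 by edgeR).

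Mitochondrial genes made up most of the rises. *mt-Co1*, a cytochrome c oxidase subunit, had 3, 1 and 1 UMIs in the chosen nuclei of PBS-vehicle libraries and 930, 675 and 600 in those of bleomycin-vehicle (log2 fold change 6.22 ± 0.632 SE, adjusted p = 0.00621 by edgeR). *mt-Co3* (5.16), *mt-Atp6* (5.99), *mt-Cytb* (5.08) and *mt-Nd4* (4.14) were called too. *mt-Nd1* and *mt-Nd2* had no UMI in the PBS-vehicle libraries fitted and were at least 25.1-fold and 24.7-fold higher in bleomycin-vehicle, taking 3 UMIs over the PBS-vehicle group as the floor. The same genes were high in the other fibroblasts of bleomycin-vehicle mice, where *mt-Co1* stood at 2966, 1752 and 994 CPM against 36.8 to 87.3 CPM in the other 9 libraries. Mitochondrial RNA lies outside the nucleus, and its share is one of the measures of how clean a nuclei preparation is. Its part in the other changes was not tested. Leaving mitochondrial genes out of the fit removed their low p-values from the adjustment and corrected no other gene for mitochondrial RNA. In that fit 3 genes were called (*Gm26870*, *Prkcq* and *Scn3a*). *Fn1* kept its log2 fold change of 2.67 there but lost its call (adjusted p = 0.0882 by edgeR), as did *Ubash3b* (adjusted p = 0.0882), *Scube1* (adjusted p = 0.0551) and *Anxa3* (adjusted p = 0.0888).

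*Ubash3b* was at 8.78, 20.5 and 0 CPM in PBS-vehicle, 67.2, 161 and 0 CPM in PBS-NVP, 194, 237 and 201 CPM in bleomycin-vehicle and 75.5, 0 and 36.6 CPM in bleomycin-NVP (bleomycin-vehicle over PBS-vehicle, log2 fold change 4.14 ± 0.673 SE, adjusted p = 0.0410 by edgeR). The other 3 called genes fell outside the rule for naming and are named after their values were seen. *Scube1*, a secreted and membrane-attached EGF-domain protein, rose from 8.78 and 20.5 CPM to 247, 198 and 179 CPM (log2 fold change 4.13, adjusted p = 0.0226 by edgeR), and the annexin gene *Anxa3* from 17.6 and 20.5 CPM to 227, 209 and 196 CPM (3.59, adjusted p = 0.0460 by edgeR). *Gm26870*, a predicted gene, had 1 UMI in PBS-vehicle against 1339 in bleomycin-vehicle.

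*Prkcq* (chr2:11172108-11301222), which encodes protein kinase C theta, had 28, 24 and 0 UMIs in the chosen nuclei of PBS-vehicle libraries 1, 2 and 3, or 246, 492 and 0 CPM. It was at 40.3, 80.4 and 0 CPM in PBS-NVP, at 7.26, 15.6 and 19.1 CPM in bleomycin-vehicle and at 37.8, 0 and 147 CPM in bleomycin-NVP. The fall between the fitted libraries was 4.49 ± 0.530 on the log2 scale (log2 fold change -4.49, adjusted p = 0.00621 by edgeR), but PBS-vehicle library 3, with 7 chosen nuclei and no *Prkcq* UMI, was outside the fit. *Scn3a* (chr2:65457118-65567627), a sodium channel gene, was at 553, 369 and 237 CPM in PBS-vehicle and at 43.6, 33.9 and 78.1 CPM in bleomycin-vehicle, with no overlap (log2 fold change -3.04 ± 0.418 SE, adjusted p = 0.0143 by edgeR). It was at 329, 177 and 216 CPM in PBS-NVP and at 302, 588 and 220 CPM in bleomycin-NVP. The other fibroblasts had *Scn3a* at 474 to 647 CPM in PBS-vehicle and 69.0, 102 and 208 CPM in bleomycin-vehicle. It was called lower there too (log2 fold change -2.13, adjusted p = 0.0417 by edgeR). The difference between the changes in chosen and other nuclei was -0.83 (adjusted p = 0.767 by edgeR) and was not called. Among all genes tested in the other fibroblasts, 0.465% rose and 0.0254% fell.

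Each of these 14 calls rested on 16 and 10 chosen nuclei in the 2 PBS-vehicle libraries. Without PBS-vehicle library 1 or 2, 0 genes were called by edgeR (744 and 521 had an unadjusted p under 0.05), and 0 also with doublets left out (495), which took library 2 below 10 nuclei and out of the fit.

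**Figure D4:**
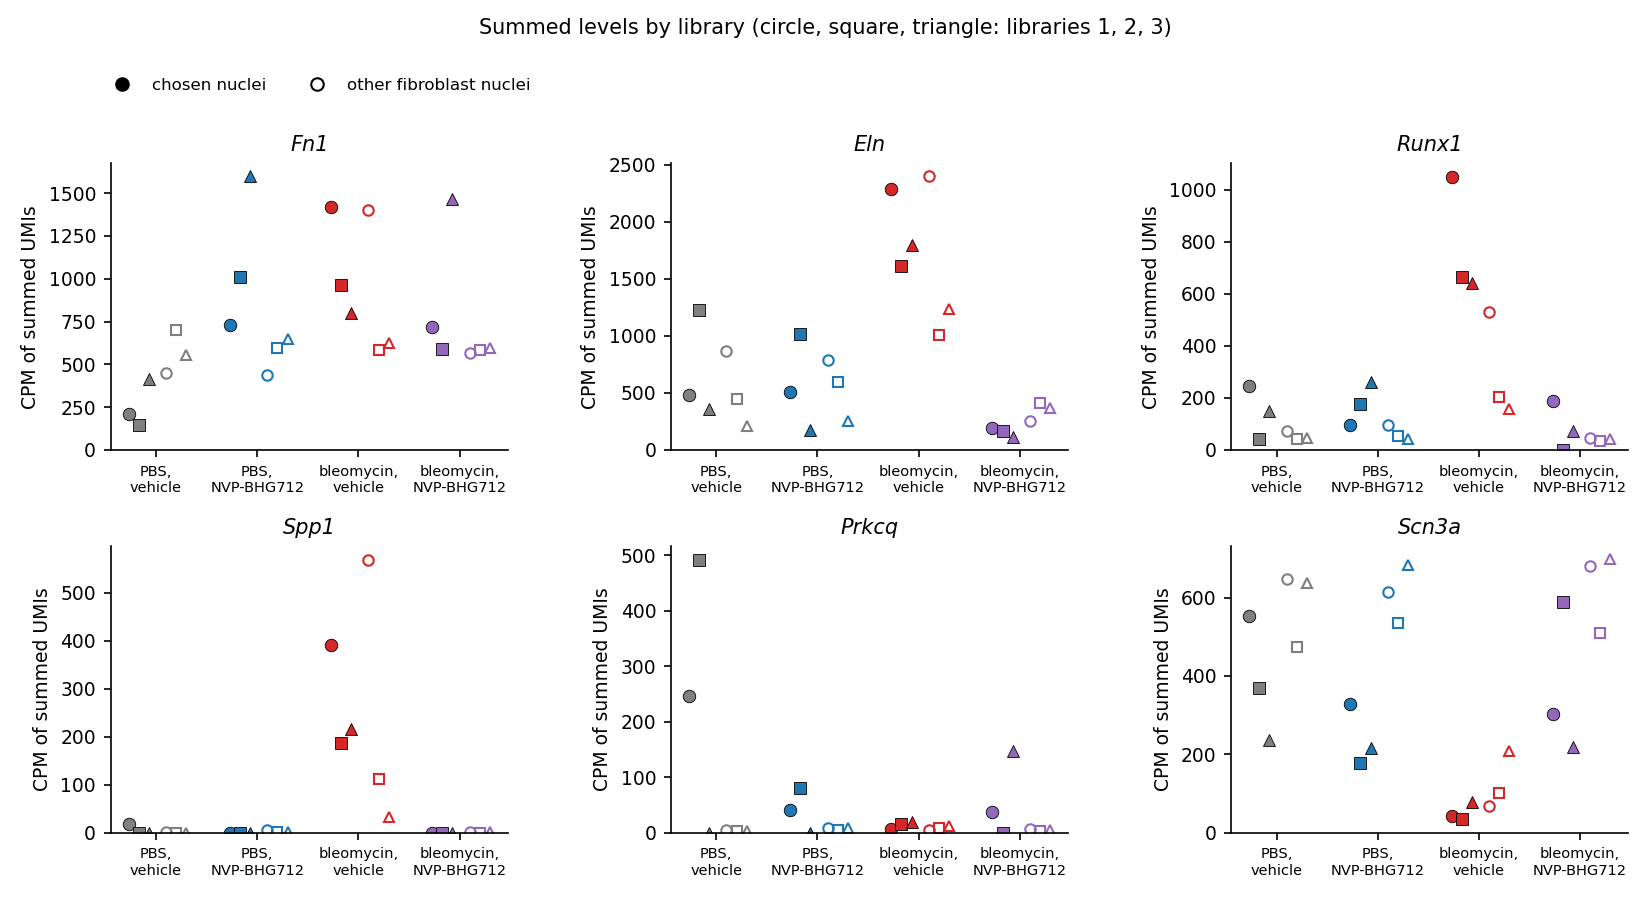
CPM of 6 genes in each library, from UMIs summed over the chosen nuclei (filled) and over the other fibroblast nuclei (open), by group. *Eln*, *Runx1* and *Spp1* are at their highest in the bleomycin-vehicle libraries among chosen nuclei, *Fn1* is lowest in PBS-vehicle, and *Scn3a* is lowest in bleomycin-vehicle.

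Several fibrotic markers were higher by value in bleomycin-vehicle but were not called. *Eln* (chr5:134702593-134747323), the elastin gene, was at 483, 1230 and 355 CPM in the chosen PBS-vehicle nuclei and at 2284, 1616 and 1793 CPM in the chosen bleomycin-vehicle nuclei (log2 fold change 1.30 ± 0.489 SE, adjusted p = 0.383 by edgeR). *Runx1* (chr16:92601466-92826149), a transcription factor, was at 246, 41.0 and 148 CPM against 1048, 665 and 642 CPM (2.41 ± 0.588 SE, adjusted p = 0.192 by edgeR). *Spp1*, the osteopontin gene, had 2, 0 and 0 UMIs against 162, 72 and 125 UMIs (4.54 ± 0.829 SE, adjusted p = 0.0886 by edgeR). None of the 3 genes overlapped between the groups, as for 32.9% of all genes.

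*Spp1* had no UMI in any chosen nucleus of the PBS-NVP and bleomycin-NVP libraries. Its level in the other fibroblasts of bleomycin-vehicle mice was 569, 112 and 33.0 CPM. *Col7a1*, which forms anchoring fibrils, had 1, 0 and 0 UMIs in PBS-vehicle and 74, 44 and 30 UMIs in bleomycin-vehicle (4.27 ± 1.20 SE, adjusted p = 0.248 by edgeR). *Inhba*, the activin A subunit, had 192 of its 206 bleomycin-vehicle UMIs in library 1 and was not among the genes tested.

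As a list, 13 of the 22 other fibrotic markers had enough UMIs to be tested. Of these 1 was called (*Fn1*), 6 had an unadjusted p under 0.05 with a rise and 11 had a positive log2 fold change. Over all 3656 genes tested, 12 were called higher, 223 had an unadjusted p under 0.05 with a rise and 1899 had a positive log2 fold change. The median of the list was 1.30 against 0.03 over all 3656 genes. In the other fibroblasts it was 1.78, over the genes of the list tested there, which were not limited to these 13. Genes entered the test through the 299 bleomycin-vehicle nuclei more easily than through the 33 PBS-vehicle nuclei, so these counts cover the tested genes alone. The study had picked 11 extracellular matrix genes from cultured fibroblasts. Of them 5 were tested and 0 called, with a median of 1.30, and *Pxdn*, a matrix peroxidase (3.59 ± 1.07 SE, adjusted p = 0.268 by edgeR), and *Itga5* (2.08 ± 0.873 SE, adjusted p = 0.412 by edgeR) had the highest values.

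Collagen genes were tested without *Col1a1*, *Col1a2* and *Col3a1*, which the choice had used. By value *Col1a1* stood at 96.6, 41.0 and 59.2 CPM in the chosen PBS-vehicle nuclei. In bleomycin-vehicle it stood at 203, 193 and 168 CPM. The values of *Col1a2* and *Col3a1* overlapped between these groups. The 12 collagen genes tested had a median of 0.15, 0 were called, and *Col5a2* (-0.22), *Col6a3* (0.18), *Col5a1* (0.34) and *Col12a1* (0.55) were each within 1 SE of 0. Collagen-processing genes (6 tested) had a median of -0.18 and matrix glycoproteins (11 tested, *Fn1* called) one of 0.38. Among glycoproteins *Fbn1* stood at 0.20, *Sparc* at 0.67 and *Tnxb* at -1.91 ± 0.615 SE (adjusted p = 0.295 by edgeR). Proteases and their inhibitors (8 tested, 0 called) had a median of -1.29, with *Timp3* at -2.65 and *Serpine2* at 1.74.

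TGF-β target genes (11 tested, 0 called) had a median of 0.77, with *Pmepa1* at 1.05, *Skil* at 1.47 and *Nox4*, an NADPH oxidase, at -1.30. The TGF-β pathway itself (14 tested, 0 called) had a median of 0.16. Contractile genes (9 tested, 0 called) had a median of -0.57, with *Acta2*, the smooth muscle actin of myofibroblasts, at -0.59 ± 0.840 SE and *Tpm1* at 1.33 ± 0.485 SE. *Acta2* UMIs were few, at 5, 7 and 5 in the PBS-vehicle libraries and 29, 10 and 31 in bleomycin-vehicle.

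All 9 alveolar fibroblast genes tested had a negative log2 fold change, with a median of -1.14, and 0 were called. Of all 3656 genes tested, 1899 had a positive one. The list genes tested in the other fibroblasts, not limited to these 9, had a median of -0.65. *Npnt*, a basement membrane ligand of integrins, was at 624, 779 and 1007 CPM in PBS-vehicle and 269, 232 and 378 CPM in bleomycin-vehicle (-1.14 ± 0.312 SE, adjusted p = 0.234 by edgeR), and *Limch1* at 2679, 2706 and 4264 CPM against 1316, 1663 and 1586 CPM (-0.71 ± 0.279 SE, adjusted p = 0.388 by edgeR). *Inmt* had a log2 fold change of -1.98 ± 0.804 SE (adjusted p = 0.405 by edgeR). Peribronchial genes (8 tested) had a median of -0.98 and adventitial genes (2 tested) one of -0.13, with 0 called in each. Immediate-early genes (5 tested, median -0.62), YAP targets (5 tested, -0.57), circadian clock genes (6 tested, -0.38), fibroblast markers (8 tested, -0.02) and p53 targets (1 tested, 0.76) also had 0 called, and no proliferation or inflammatory fibroblast gene had enough UMIs.

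Markers of other cell classes moved between the groups as well, though 0 were called. In the 2 fitted PBS-vehicle libraries the summed AT2 list stood at 1414 and 492 CPM in the chosen nuclei, and in bleomycin-vehicle at 1111, 1548 and 2388 CPM. The summed AT1 list stood at 325 and 102 CPM and at 453, 985 and 1446 CPM, and the median log2 fold change was 0.48 over 7 AT2 genes, 1.62 over 3 AT1 genes, 4.27 over 2 airway genes, 1.15 over 5 endothelial genes and 2.22 over 3 macrophage genes. *Sftpc*, the surfactant gene of AT2 cells, was at 158, 164 and 0 CPM against 276, 727 and 1033 CPM. Pericyte genes (5 tested) had a median of -1.05 and smooth muscle genes (5 tested) one of -1.69, and the lymphatic (1 tested, 1.53) and mesothelial (1 tested, 1.81) lists rested on 1 gene each, with no lymphocyte gene tested. The part of these classes in the gene differences was not tested.

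**Figure D5:**
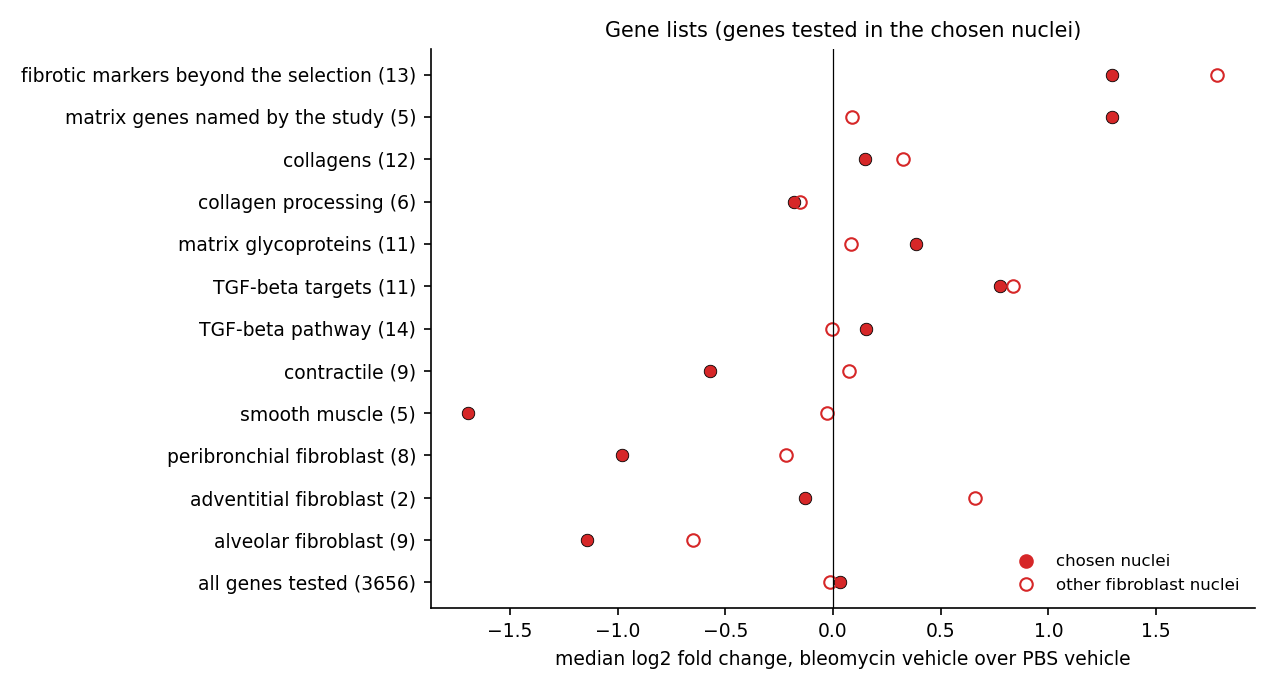
Median log2 fold change, bleomycin-vehicle over PBS-vehicle, of each gene list in chosen nuclei (filled) and in other fibroblast nuclei (open), with the number of genes tested in brackets. Each median covers the list genes tested in that set of nuclei, so the genes can differ between the 2. Fibrotic markers lie at 1.30 and 1.78 and alveolar fibroblast genes at -1.14 and -0.65, while all genes tested lie at 0.03 and -0.01.

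Whether bleomycin changed the chosen nuclei differently from other fibroblasts was tested directly, with both sums of each library in 1 fit. Of 8611 genes, 2 were called (0.0232%), both with a lower log2 fold change in the chosen nuclei. They were *Prkcq* (difference of log2 fold changes -5.40 ± 0.695 SE, adjusted p = 0.000108 by edgeR) and the ryanodine receptor gene *Ryr2* (-4.18 ± 0.765 SE, adjusted p = 0.0279 by edgeR). In the other fibroblasts alone the log2 fold change was 1.15 for *Prkcq* (adjusted p = 0.255 by edgeR) and 1.89 for *Ryr2* (adjusted p = 0.167 by edgeR), neither of them called. *Ryr2* had 4, 19 and 0 UMIs in the chosen nuclei of PBS-vehicle and 7, 9 and 19 in those of bleomycin-vehicle, and the call was lost without PBS-vehicle library 2 (adjusted p = 0.697 by edgeR) or bleomycin-vehicle library 3 (adjusted p = 0.103 by edgeR).

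In PBS mice, NVP-BHG712 against vehicle gave 0 called of 3656 genes in the chosen nuclei (0%) by edgeR, with 172 at an unadjusted p under 0.05, and 0 by DESeq2, with 116 at an unadjusted p under 0.05. The difference from other fibroblasts also gave 0 of 8611 by edgeR, with 477 at an unadjusted p under 0.05. *Eln* was at 510, 1013 and 173 CPM in PBS-NVP and *Runx1* at 94.0, 177 and 260 CPM, both overlapping PBS-vehicle.

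For NVP-BHG712 under bleomycin the planned test could not be made, since no bleomycin-NVP library had 10 chosen nuclei. Values and a fit over all 12 libraries are given instead, each bleomycin-NVP sum resting on 4 to 8 nuclei and 11905 to 27296 UMIs. In that fit 27 of 1650 genes (1.64%) were called between bleomycin-NVP and bleomycin-vehicle, 10 higher and 17 lower, of which 8 were mitochondrial and 3 predicted genes. The same fit called 1.45% of genes between bleomycin-vehicle and PBS-vehicle. Bleomycin-NVP against PBS-NVP gave 0 called by edgeR, with 108 at an unadjusted p under 0.05, and 1 by DESeq2.

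The elastin gene and *Runx1* were among the genes that fell. *Eln* had 5, 2 and 3 UMIs in the chosen bleomycin-NVP nuclei, or 189, 168 and 110 CPM, against 944, 620 and 1033 UMIs in bleomycin-vehicle (log2 fold change -3.85 ± 0.678 SE, adjusted p = 0.0120 by edgeR). The groups did not overlap, as for 22.5% of the 1650 genes, and bleomycin-NVP also lay below 5 of the 6 PBS libraries. In the other fibroblasts *Eln* was at 253, 408 and 366 CPM in bleomycin-NVP and at 2396, 1006 and 1238 CPM in bleomycin-vehicle. *Runx1* fell as well, from 433, 255 and 370 UMIs to 5, 0 and 2 UMIs (-3.15 ± 0.693 SE, adjusted p = 0.0365 by edgeR). When each of the 12 libraries was left out in turn, *Eln* was called in 10 of the 12 fits and *Runx1* in 7, and without mitochondrial genes *Runx1* was not called (adjusted p = 0.0575 by edgeR).

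The mitochondrial genes *mt-Co1* (-4.37), *mt-Co3* (-4.16), *mt-Co2* (-3.91), *mt-Cytb* (-3.87), *mt-Nd4* (-3.63) and *mt-Atp6* (-3.53) fell in bleomycin-NVP, and *mt-Nd1* and *mt-Nd2* had no UMI there. Chosen after their values were seen, *Piezo2*, a mechanically gated channel gene, fell by 3.10 and *Ldlrad4*, an inhibitor of TGF-β signalling, by 3.00 on the log2 scale. The genes that rose included *Tnxb*, the tenascin-X gene (3.09), *Amph* (2.96), *Ppp4r4* (2.54), *Scn3a* (2.46), the clock gene *Nr1d2* (1.98), *Specc1l* (1.85), *Dock4* (1.71) and the collagen receptor gene *Ddr2* (1.70). The other 2 of the 10 rises, named after their values were seen, were the predicted gene *Gm4876* (2.99) and *Rtn4* (1.67). *Tnxb* was at 302, 504 and 403 CPM in bleomycin-NVP, at 12.1, 70.4 and 36.4 CPM in bleomycin-vehicle and at 123 to 303 CPM in the PBS libraries. Of the 27 genes 3 were called in every fit that left out 1 library (*mt-Co1*, *mt-Co3* and *Gm26870*). *Tnxb* and *Amph* were called in 10 of these 12 fits each. *Piezo2* and *Nr1d2* were called in 4 each, *Ldlrad4* in 3, *Dock4* in 1 and *Rtn4* in 0.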

How the data were processed

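Single-nucleus RNA-Seq was performed by the authors on sorted nuclei of frozen lungs (10x 3' v3.1). The authors aligned reads to mm10 with Cell Ranger (version 7.0 in the labels, 7.2.0 in the file headers) and deposited raw counts, 1 value per UMI total of a gene in a barcode, without normalization. The study's free-RNA correction and doublet removal are not in these counts. Gene positions are from GENCODE on GRCm38 (388 of 391 named genes matched).

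The members and gene lists were chosen with earlier results of these data known. Quality limits and the selection rule were applied as given in the report. Doublets were scored with scrublet in scanpy 1.11.5, marked at 0.8% per 1000 nuclei, and kept in the main analysis. Library totals were 3556084 to 61947690 UMIs, and intervals cover counting error only. CPM are UMIs per 1000000 UMIs summed over the nuclei described. Shares were compared by two-sided exact permutation tests over libraries (Benjamini-Hochberg over 5 comparisons). Summed counts were tested with edgeR 4.0.16 (R 4.3.3; filterByExpr, TMM, robust quasi-likelihood F test, 2-sided, Benjamini-Hochberg over all genes tested; biological coefficient of variation 0.334). The 19 genes of the rule were left out of these tests. On simulated counts for bleomycin-vehicle against PBS-vehicle (3500 genes), 74% of 4-fold and 97% of 8-fold changes were recovered, and 4.47% of calls were false. In the real fit *Spp1*, *Col7a1* and *Pxdn* had estimated changes above 8-fold and were not called. An uncalled gene may therefore still have changed that much. Each library is a separate mouse, and replicates differed beyond sampling noise.

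Named genes were those called, at 20 CPM or more, without overlap between groups and with no predicted-gene symbol (8 rises and 8 falls for either bleomycin contrast, 3 and 3 otherwise), the 15 highest and 10 lowest ratios at 50 CPM against other fibroblasts, and genes of the scored, entry, fibrotic, study matrix and EphB lists with up to 4 of every other list; 1 gene among them is not reported here. Alternatives were other selection limits, doublets out, fibroblast markers leading, thinning, other filters and scalings, DESeq2 1.42.0, blocks and leaving out each library. Replicate numbers did not pair the libraries (correlations of deviations between same-numbered libraries at most 0.0646). The run number served only as a block in PBS.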

Additional observations from a re-analysis of the deposited data

Results flagged for a closer look

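In 2 genes the change from PBS-vehicle to bleomycin-vehicle differed between the chosen nuclei and the other fibroblasts by a test of the difference itself, edgeR's quasi-likelihood test over 8611 genes. For *Prkcq* the log2 change was 5.40 lower in the chosen nuclei (difference -5.40, adjusted p = 0.000108). The call held in the alternatives that kept both PBS-vehicle libraries. These were another scaling, no count filter and each PBS-NVP or bleomycin-vehicle library left out. The other alternatives kept 1 PBS-vehicle library. There the difference was -5.38 for nuclei led by fibroblast markers alone, -6.13 without PBS-vehicle library 1 and -4.78 without PBS-vehicle library 2. For *Ryr2* the difference was -4.18 (adjusted p = 0.0279), and 2 of 9 alternatives lost the call, those without PBS-vehicle library 2 and without bleomycin-vehicle library 3. Among nuclei led by fibroblast markers alone *Ryr2* was not among the genes tested. In both genes the PBS-vehicle level rested on 16 and 10 nuclei of 2 libraries (52 UMIs of *Prkcq* and 23 of *Ryr2*), and PBS-vehicle library 3, outside the fit, had no UMI of either.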

How the results depend on the processing

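The excess of chosen nuclei in bleomycin-vehicle over PBS-vehicle kept its direction under every alternative computed, and ranged from 3.30 to 13.2 points as single libraries were left out; bleomycin-NVP minus bleomycin-vehicle ranged from -13.4 to -3.51 and bleomycin minus PBS from 1.25 to 5.96. The small differences turned sign. PBS-NVP minus PBS-vehicle became 0.132 for nuclei led by fibroblast markers and 0.418 when thinned to 500 UMIs (range without single libraries -0.338 to 0.150, with 0.0286 without PBS-vehicle library 2). Bleomycin-NVP minus PBS-NVP became 0.160 with at least 5 scored UMIs, 0.00274 over all nuclei, 0.118 and 0.343 when thinned to 1000 and 2000 UMIs (range -0.419 to 0.304, with 0.132 without PBS-NVP library 2). The cause was not tested.

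Genes called between bleomycin-vehicle and PBS-vehicle (14) numbered 152 without the count filter (98 higher, 54 lower), 24 over all 12 libraries, 31 by DESeq2, 3 without mitochondrial genes and 0 with doublets left out, where PBS-vehicle library 2 dropped out of the fit. They ranged from 0 to 16 without single libraries, where a lone library is assumed to vary like the other groups. PBS-NVP against PBS-vehicle gave 22 without the filter (range 0 to 1). The difference from other fibroblasts gave 20 (bleomycin) and 10 (PBS-NVP) without the filter, 8 and 2 for nuclei led by fibroblast markers, and ranges of 2 to 21 and 3 to 16. The following alternatives were chosen after seeing the data. In the 12-library fit the 27 calls became 4 with a floor of 500 UMIs per nucleus and a ceiling of 1% mitochondrial, 8 without mitochondrial genes and 47 by DESeq2, and ranged from 4 (without bleomycin-NVP library 3) to 26, with 6 without bleomycin-NVP library 2 and 7 and 8 without bleomycin-vehicle libraries 2 and 1. Bleomycin-NVP against PBS-NVP gave 1 by DESeq2 (range 0 to 1). Of the named genes, 0 changed sign under any alternative, with 235 values on the same side of the threshold and 89 no longer past it. Requiring 20 chosen nuclei gave no value, as no PBS-vehicle library had them.

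The replicate block gave 20 calls for bleomycin-vehicle against PBS-vehicle, of which 12 were among the 14, and 27 in the 12-library fit. A paired sign-flip test of the shares, which cannot go below p = 0.25 with 3 pairs, gave p = 0.25 for bleomycin-vehicle minus PBS-vehicle (9.71 points), an exact test, and p = 0.25, 0.75 and 1 for the other exact pairings. The numbers did not pair the libraries, and run number as a block in PBS left 0 calls. The bleomycin-NVP values rest on 19 nuclei in all.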
